A study of Homo sapiens with 4 samples.

Results

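The genes described here make, interconvert or carry amino acids and the one-carbon units that derive from serine and glycine. They are 33 genes chosen by symbol, 21 enzymes and 12 transporters of the solute carrier (SLC) families, and 32 of them were measured among 19775 genes on the arrays. GPT2, a mitochondrial alanine aminotransferase, had no probe set listed under its symbol in the annotation used and was not analysed here. RNA was profiled in AGS, a human gastric adenocarcinoma cell line, on 2 arrays of PRMT6-knockout cells and 2 arrays of control cells that the labels call PRMT6 wild-type. Knockout cells had received 1 guide RNA against PRMT6 in the lentiCRISPR v2 vector, had been selected with puromycin and had been cloned by limiting dilution. Which clone was hybridised to which knockout array, and whether control cells carried a vector or were cloned, the labels leave unstated. They also do not say that arrays of a group came from separate cultures, so p-values measure the spread between these arrays, which may be technical. PRMT6 is an arginine methyltransferase that acts on histone H3.

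Serine is built from a glycolytic intermediate by PHGDH, PSAT1 and PSPH, and serine hydroxymethyltransferases turn it into glycine while loading a one-carbon unit onto folate. Cytosolic and mitochondrial folate enzymes pass that unit on to purine, thymidylate and methionine synthesis. Many of these enzymes and several amino acid transporters are known targets of ATF4, a transcription factor made when the kinases of the integrated stress response, such as the amino acid sensor GCN2 and the endoplasmic reticulum sensor PERK, phosphorylate the initiation factor eIF2.

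Values are log2 intensities of RMA, a method that corrects background, quantile-normalizes and summarizes the probes of a probe set, and each gene was read from its brightest probe set annotated to that gene alone. A difference is knockout minus control on the log2 scale, and calls are made where limma's p, adjusted over all genes, is under 0.05. In RNA of whole cultures, fewer cells of a type and less RNA per cell cannot be told apart. Array medians over probe sets lay between 5.01 and 5.02, and probe sets correlated at 0.996 for the pair of knockout arrays, 0.995 for the control pair and 0.981 to 0.984 for pairs that join a knockout and a control array (Pearson's r, across probe sets). PRMT6 read 7.79 and 7.63 on the knockout arrays, against 8.03 and 8.11 on the control arrays (difference -0.36, SE 0.09, adjusted p = 0.043 in limma), a call that failed in each fit on 3 arrays (adjusted p 0.103 to 0.228); where its probe set lies relative to the edit was not analysed here, so this does not test the edit. Of 10 epithelial markers 9 lay above the median gene's level of 5.97 in both groups, EPCAM and KRT18 among them, and CLDN3 lay below it. In limma 4 of the 10 were called higher (ELF3, CDX2, KRT19 and KRT8, by 0.49 to 1.05). CLDN7 (-0.65) and CLDN4 (-0.46) were called lower, and the other 4, EPCAM and KRT18 among them, were not called. Of 6 measured fibroblast markers 3 were called higher in the knockout arrays (COL1A1, LUM and COL3A1), where the linear intensities of the 6 summed to 1254 and 1187, against 449.1 and 474.9 on the control arrays. Most of each sum was COL1A1 (10.18 and 10.09 on the knockout arrays, 8.55 and 8.60 on the control arrays). It was the only one of the 6 above the median gene in either group, and COL1A2, DCN and PDGFRB were not called. The part of these markers in the results below was not tested. Of 4 measured leukocyte and 4 endothelial markers 0 were called in limma, though all 4 leukocyte markers had an unadjusted p under 0.05 (CD14, CD3E and LYZ lower, PTPRC higher). LYZ, the only leukocyte marker above the median gene, read 12.36 and 11.30 on the knockout arrays, against 12.77 and 12.88 on the control arrays (95% interval of the difference -1.85 to -0.15, adjusted p = 0.096). PECAM1 averaged 6.01 in knockout cells and 5.89 in control cells, and the other 6 markers, PTPRC and CDH5 among them, lay below the median gene in both groups.

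In PRMT6-knockout cells 18 of the 32 measured genes were lower and 2 were higher. Over all genes 11.5% were called lower and 12.4% higher, 24.0% together. Of the 12 SLC transporters 10 were lower and 0 higher (limma; SLC7A8 and SLC36A1 had unadjusted p-values of 0.057 and 0.019), with a median difference of -0.84. Of 20 measured enzymes 8 were lower and 2 higher, around a median of -0.015, where the median over all genes was -0.006; the difference between transporters and enzymes was not tested. The falls ran from 1.49-fold for SLC6A9 to 5.20-fold for SLC1A4, and 10 were at least 2-fold, a size of called fall that 2.16% of all genes reached. Knockout arrays lay below both control arrays for 20 of the 32 genes and above both for 6, each of which held for 29.1% of all genes. These counts rested on all 4 arrays: the genes lower were 9 without knockout 1, 10 without knockout 2, 15 without control 1 and 17 without control 2, against 1.89%, 1.79%, 6.36% and 6.07% of all genes. Genes higher were 0, 0, 2 and 0 in the same order, against 0.991%, 0.779%, 6.93% and 5.18% of all genes. Blocking on the replicate number left 18 lower and 2 higher (9.8% and 10.3% of all genes), and averaging the probe sets of a gene gave 4 higher (12.2%), GOT2, BCAT1, CBS and SLC7A8, without MTHFD1. Scaling the arrays to a common mean of 11 reference genes, which moved the median of all genes to -0.32 and called 52.0% of genes lower and 5.4% higher, left 22 of the 32 lower and 0 higher. Rises made up 9.4% of all calls under that scaling and 51.9% on the deposited scale. On the deposited scale 6 of the 11 reference genes were themselves called higher and 0 lower, with a median difference of 0.33. The scaling sets their mean equal on all arrays, so calls gained or lost under it rest on these genes being unchanged, which was not tested.

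**Figure D1:**
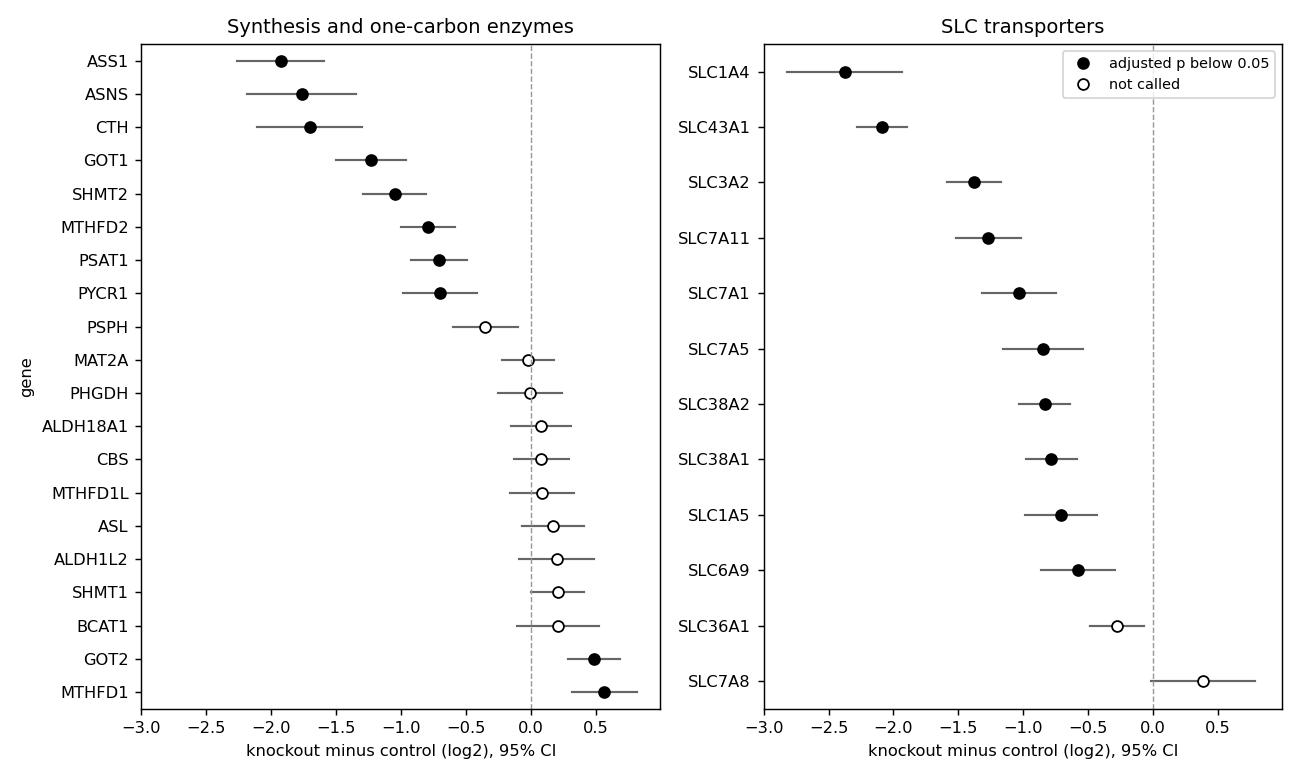
Knockout minus control difference of each measured gene (log2, points) with its 95% confidence interval from limma (lines), for 20 enzymes on the left and 12 SLC transporters on the right, in order of the difference. Filled points are called at an adjusted p below 0.05; 10 transporters lie below 0 and called, while the enzymes spread from -1.93 for ASS1 to 0.57 for MTHFD1.

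**Figure D2:**
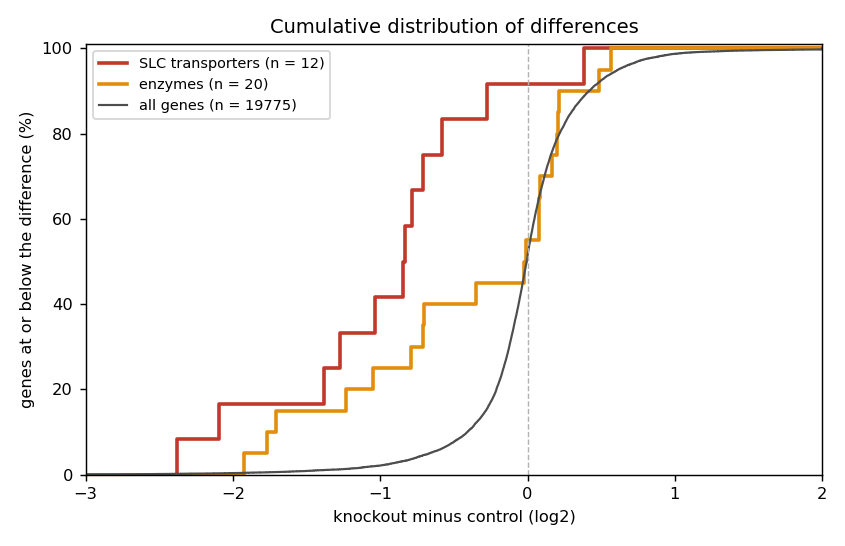
Cumulative share of genes (%) at or below each knockout minus control difference (log2) for the 12 SLC transporters, the 20 enzymes and all 19775 genes. The transporter curve lies left of the curve of all genes from SLC1A4 at -2.38 to SLC7A8 at 0.38. The enzyme curve lies left of the curve of all genes between ASS1 at -1.93 and PSPH at -0.35. From there to MTHFD1 at 0.57 the enzyme curve crosses it and lies on either side.

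Sequence upstream of these genes was set beside the falls, because ATF4 binds with C/EBP partners at a response element whose core reads TGATGNAA. That core was searched on both strands of RefSeq promoter windows of GRCh38.p14, which run from 250 bases before to 50 bases after an annotated start, together with CACGTG, the E-box bound by MYC and related factors. The tables held 49 windows for 27 of the 32 genes. TGATGNAA was found for 9 of the 27 genes (33.3%) and in 22.4% of their windows, against 4.46% of all 27305 genes and 3.62% of all 35116 windows. Windows per gene numbered 1.81 for these genes and 1.29 over all, and windows of 1 gene can overlap. Of 15 genes called lower that had a window 7 held the core (ASNS, GOT1, SLC3A2, SLC7A1, SLC1A4, SLC1A5 and SLC38A1), as did 2 of 10 genes not called (MTHFD1L and BCAT1) and 0 of 2 called higher. CACGTG was found for 10 of the 27 genes (37.0%), 4 of them called lower, 1 called higher and 5 not called, against 8.77% of all genes. The 2 motifs overlapped nowhere in these windows. A match describes letters in a window, not a bound site. The lines below show the match in capitals for the 4 genes with the largest falls that hold it, each written 5′ to 3′ along the gene's own strand and, except for SLC3A2, covering the bases before the annotated start.
SLC1A4: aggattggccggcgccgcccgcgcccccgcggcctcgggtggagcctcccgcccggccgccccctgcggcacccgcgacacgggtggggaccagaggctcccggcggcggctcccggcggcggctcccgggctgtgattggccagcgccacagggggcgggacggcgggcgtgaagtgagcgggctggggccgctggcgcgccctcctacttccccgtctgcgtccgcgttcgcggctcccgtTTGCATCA
ASNS: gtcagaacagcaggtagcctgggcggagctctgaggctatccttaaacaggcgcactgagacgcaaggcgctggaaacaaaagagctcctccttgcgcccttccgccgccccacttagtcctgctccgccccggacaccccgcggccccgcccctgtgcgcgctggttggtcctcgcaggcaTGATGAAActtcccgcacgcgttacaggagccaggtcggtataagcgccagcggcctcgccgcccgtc
SLC3A2: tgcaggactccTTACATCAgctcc
GOT1: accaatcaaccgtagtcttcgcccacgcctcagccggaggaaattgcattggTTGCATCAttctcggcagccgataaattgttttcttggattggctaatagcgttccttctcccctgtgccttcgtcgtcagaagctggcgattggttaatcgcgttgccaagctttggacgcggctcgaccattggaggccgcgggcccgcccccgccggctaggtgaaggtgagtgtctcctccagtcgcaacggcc

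In ASNS, on the minus strand, the match reads in the gene's own direction at chr7:97872469-97872476 and begins at -68 from the start. In GOT1, also on the minus strand, it reads in the opposite direction at chr10:99430815-99430822 and begins at -198. In SLC1A4, on the plus strand, it reads in the opposite direction at chr2:64989392-64989399, begins at -7 and ends on the start base. In SLC3A2, on the plus strand, it reads in the opposite direction at chr11:62881736-62881743, past the start of that window, and only a short stretch around it is shown.

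Of the 5 enzymes of serine and glycine 2 were lower, PSAT1 and SHMT2, against 11.5% of all genes. PHGDH, PSPH and SHMT1 were not called. PHGDH, the first enzyme of serine synthesis, read 6.33 and 6.19 on the knockout arrays, against 6.34 and 6.19 on the control arrays, so the groups overlapped (difference -0.01, 95% confidence interval -0.25 to 0.24). Under reference gene scaling, where 52.0% of all genes were called lower, PHGDH was called lower as well (-0.33, adjusted p = 0.0324 in limma). PSAT1, the second enzyme, read 11.71 and 11.85 on the knockout arrays, against 12.49 on both control arrays. Both knockout arrays lay below the controls, and PSAT1 fell by 0.71 (SE 0.09, adjusted p = 0.0049), a call lost without either knockout array (adjusted p 0.0663 without knockout 1 and 0.0586 without knockout 2). PSPH, the last enzyme of the pathway, read 9.51 and 9.68 on the knockout arrays, against 9.89 and 10.00 on the control arrays. The PSPH groups did not overlap, but its difference of -0.35 missed the threshold (interval -0.60 to -0.10, adjusted p = 0.058). PSPH was called lower among brighter genes only (0.0133), with an intensity trend in the prior (0.0100) and under reference gene scaling (0.00562). SHMT2, the mitochondrial serine hydroxymethyltransferase, read 10.38 and 10.58 on the knockout arrays, against 11.53 on both control arrays, and fell by 1.05 or 2.07-fold (SE 0.10, adjusted p = 0.0024). Its cytosolic counterpart SHMT1 was read by a dim probe set, at 3.93 ± 0.06 in knockout cells and 3.73 ± 0.06 in control cells (SD, n = 2 arrays each), and was not called (difference 0.21).

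Of the 4 folate enzymes that follow, 1 was lower (MTHFD2), 1 higher (MTHFD1) and 2 were not called. Each call is 25.0% of the 4, against 11.5% of all genes lower and 12.4% higher. MTHFD2, the mitochondrial methylenetetrahydrofolate dehydrogenase and cyclohydrolase, read 11.90 and 12.01 on the knockout arrays, against 12.76 and 12.73 on the control arrays. It fell by 0.79 (SE 0.08, adjusted p = 0.0033), with no overlap; the call was lost without either knockout array (0.0593 and 0.0558). MTHFD1, the cytosolic enzyme that joins the same activities to a synthetase, read 11.27 and 11.33 on the knockout arrays, against 10.84 and 10.64 on the control arrays. Both knockout arrays lay above the controls, and MTHFD1 rose by 0.57 or 1.48-fold (SE 0.10, adjusted p = 0.014), a call lost without knockout 1 (0.108), knockout 2 (0.132) or control 2 (0.0601), under reference gene scaling (0.0653) and with the mean of its probe sets, where the difference was 0.01 (0.957). MTHFD1L and ALDH1L2, both mitochondrial, read 4.07 and 4.58 on average in knockout cells, against 3.99 and 4.38 in control cells, and neither was called (differences 0.08 and 0.20). The levels of SHMT1, MTHFD1L, ALDH1L2, BCAT1 and CBS lay below the median gene in both groups, and whether they exceeded background cannot be read from these values; these are 5 of the 10 enzymes that were not called.

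Of the 4 measured genes of asparagine synthesis and transamination 2 were lower, 1 was higher and 1, BCAT1, was not called. For comparison, 11.5% of all genes were lower and 12.4% higher. ASNS, which makes asparagine from aspartate and glutamine, read 10.63 and 11.11 on the knockout arrays, against 12.66 and 12.61 on the control arrays. Both knockout arrays were far below the controls and 0.48 apart, and ASNS fell by 1.77 or 3.40-fold (SE 0.17, adjusted p = 0.0025). GOT1, the cytosolic aspartate aminotransferase, read 9.32 and 9.54 on the knockout arrays, against 10.72 and 10.60 on the control arrays, and fell by 1.23 or 2.35-fold (SE 0.11, adjusted p = 0.0022). GOT2, the mitochondrial form of the same activity, read 10.40 and 10.42 on the knockout arrays, against 9.97 and 9.88 on the control arrays. It rose by 0.49 or 1.40-fold (SE 0.08, adjusted p = 0.012) with no overlap; the call was lost without knockout 1 (0.101), knockout 2 (0.112) or control 2 (0.0612) and under reference gene scaling (0.116). The cytosolic branched-chain aminotransferase BCAT1 read 4.03 ± 0.10 in knockout cells and 3.82 ± 0.21 in control cells (SD, n = 2 arrays each), and was not called by its brightest probe set (difference 0.21). Its 3 dimmer probe sets were each called higher, by 0.51 to 1.37, in a fit over single probe sets.

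In the pathways of proline, sulfur amino acids and arginine 1 of 2, 1 of 3 and 1 of 2 enzymes were lower. The share lower over all genes was 11.5%. PYCR1, which reduces pyrroline carboxylate to proline in mitochondria, read 8.49 and 8.61 on the knockout arrays, against 9.38 and 9.13 on the control arrays, and fell by 0.70 (SE 0.11, adjusted p = 0.011; 0.113 without knockout 1 and 0.0953 without knockout 2). ALDH18A1, which makes the precursor of that step from glutamate, read 9.23 in knockout cells and 9.15 in control cells on average (difference 0.08, interval -0.15 to 0.31). CTH, the cystathionine lyase that releases cysteine, read 9.05 and 9.49 on the knockout arrays, against 11.03 and 10.92 on the control arrays. The groups were far apart, and CTH fell by 1.70 or 3.26-fold (SE 0.16, adjusted p = 0.0025). CBS, which acts before CTH and has a near-identical annotated copy in the assembly that the arrays may not tell apart, averaged 5.14 in knockout cells and 5.07 in control cells and was not called. Of the 3 CBS probe sets 1 was called higher when fitted singly (0.44, adjusted p = 0.039), and their mean was called higher (0.31, adjusted p = 0.0321). MAT2A, which makes the methyl donor S-adenosylmethionine, read 10.10 and 10.03 on the knockout arrays, against 10.10 and 10.07 on the control arrays, with overlap (difference -0.02, interval -0.22 to 0.18). Like PHGDH, MAT2A was called lower under reference gene scaling (-0.34, adjusted p = 0.0192 in limma). ASS1, the argininosuccinate synthase, read 3.94 and 4.29 on the knockout arrays, against 6.07 and 6.01 on the control arrays. It fell by 1.93 or 3.80-fold (SE 0.13, adjusted p = 0.0012), the largest fall among the enzymes; the knockout level lay below the median gene, so the fold is approximate. ASL, which acts after ASS1, averaged 8.80 in knockout cells and 8.63 in control cells and was not called (difference 0.17, interval -0.07 to 0.41).

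**Figure D3:**
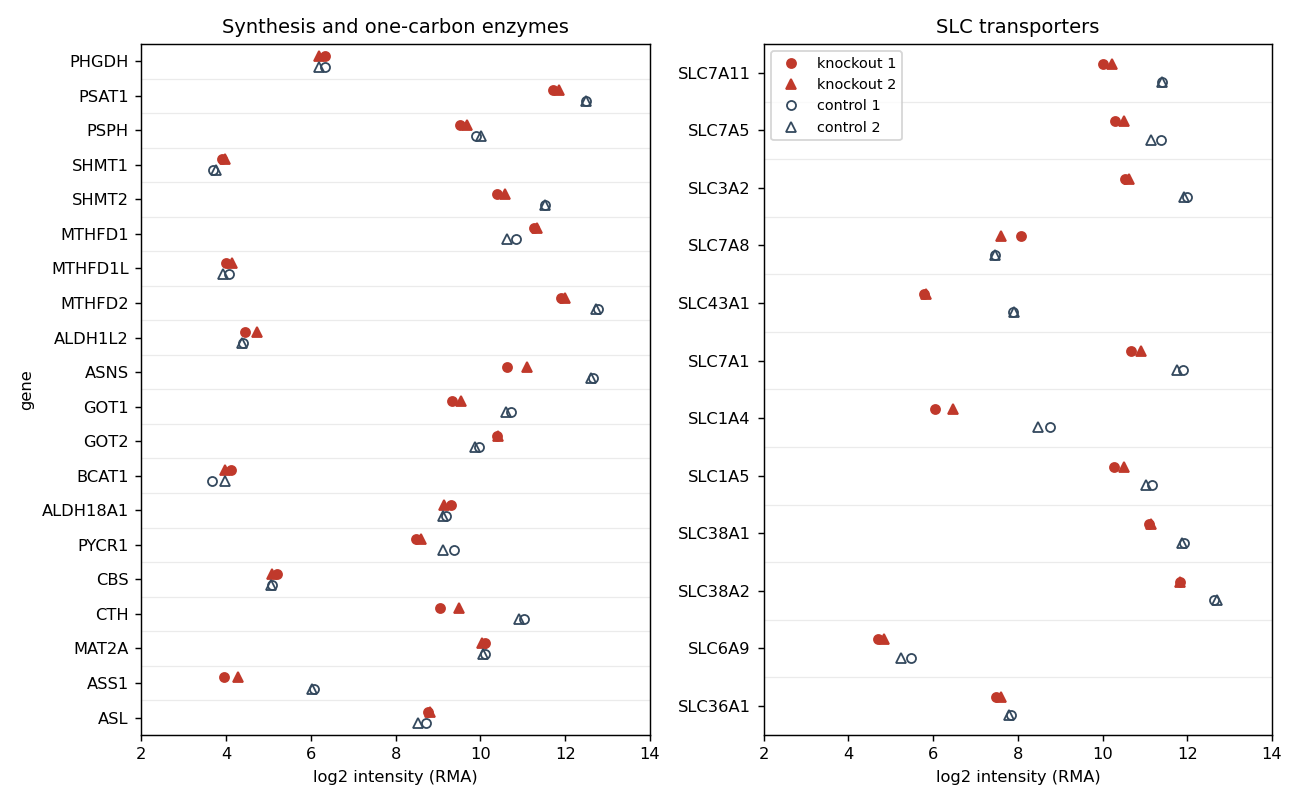
Log2 intensity (RMA) of each measured gene on each array, with enzymes on the left and SLC transporters on the right; filled red marks are knockout arrays and open dark marks control arrays, drawn below them, with circles for replicate 1 and triangles for replicate 2. Knockout marks lie left of both control marks for 20 genes, right of both for 6 and among them for 6.

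Of the 6 genes of cystine, large neutral and cationic amino acid carriers, 5 were lower (83.3%, against 11.5% of all genes). The heavy chain SLC3A2 was among them, and SLC7A8 was not called. SLC3A2 encodes the heavy chain (CD98) that brings the light chains SLC7A5, SLC7A8 and SLC7A11 to the cell surface; it read 10.54 and 10.61 on the knockout arrays, against 11.99 and 11.92 on the control arrays. With no overlap, SLC3A2 fell by 1.38 or 2.60-fold (SE 0.08, adjusted p = 0.00083). SLC7A11, which imports cystine in exchange for glutamate, read 10.02 and 10.23 on the knockout arrays, against 11.40 and 11.39 on the control arrays, and fell by 1.27 or 2.41-fold (SE 0.10, adjusted p = 0.0017). SLC7A5, the light chain of the leucine exchanger LAT1, read 10.30 and 10.51 on the knockout arrays, against 11.37 and 11.14 on the control arrays. It fell by 0.85 (SE 0.12, adjusted p = 0.0079), a call lost without knockout 1 (0.0878), knockout 2 (0.0700) or control 1 (0.0511). SLC7A8, the light chain of the related exchanger LAT2, read 8.06 and 7.61 on the knockout arrays, against 7.46 and 7.45 on the control arrays. Both knockout arrays lay above the controls but 0.45 apart, and the difference of 0.38 was not called (interval -0.02 to 0.78, adjusted p = 0.16). SLC43A1, a large neutral amino acid carrier that needs no heavy chain, read 5.79 and 5.83 on the knockout arrays, against 7.88 and 7.92 on the control arrays. Its arrays agreed closely within each group, and SLC43A1 fell by 2.09 or 4.26-fold (SE 0.08, adjusted p = 0.00028). It was read by 1 probe set, and the knockout level lay below the median gene, so the fold is approximate, as for ASS1. SLC7A1, the cationic carrier of arginine and lysine, read 10.67 and 10.91 on the knockout arrays, against 11.89 and 11.76 on the control arrays, and fell by 1.03 or 2.05-fold (SE 0.11, adjusted p = 0.0036; 0.0561 without knockout 1).

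Of the carriers driven by sodium or protons 5 of 6 were lower (83.3%, against 11.5% of all genes). Knockout arrays lay below control arrays for all 6, which held for 29.1% of all genes. SLC1A4, an exchanger of alanine, serine and cysteine, read 6.04 and 6.46 on the knockout arrays, against 8.77 and 8.48 on the control arrays. It fell by 2.38 or 5.20-fold (SE 0.17, adjusted p = 0.0014), and 0.228% of all genes had a difference as low or lower. This was the largest fall of the 32 genes by brightest probe sets, but not with the mean of its probe sets (-1.79, against -2.09 for SLC43A1 and -1.93 for ASS1) or with its gene-specific probe set (-0.75). SLC1A5, the glutamine exchanger ASCT2, read 10.27 and 10.50 on the knockout arrays, against 11.16 and 11.03 on the control arrays. It fell by 0.71 (SE 0.11, adjusted p = 0.0095), and each fit on 3 arrays lost the call (0.0844 without knockout 1, 0.0633 without knockout 2, 0.0655 without control 1 and 0.0539 without control 2). SLC38A1, a glutamine transporter coupled to sodium, read 11.09 and 11.14 on the knockout arrays, against 11.92 and 11.88 on the control arrays, and fell by 0.78 (SE 0.08, adjusted p = 0.0028; 0.0579 without knockout 1 and 0.0583 without knockout 2). SLC38A2, its homologue known to be induced when cells lack amino acids, read 11.82 and 11.84 on the knockout arrays, against 12.63 and 12.70 on the control arrays. It fell by 0.83 (SE 0.08, adjusted p = 0.0025; 0.0547 without knockout 1 and 0.0577 without knockout 2), with no overlap. SLC6A9, the glycine transporter GLYT1, read 4.71 and 4.84 on the knockout arrays, against 5.47 and 5.23 on the control arrays. It fell by 0.58 (SE 0.11, adjusted p = 0.019), at levels below the median gene in both groups, and the call was lost without knockout 1 (0.153), knockout 2 (0.114) or control 1 (0.0736). SLC36A1, a proton-coupled carrier found on lysosomes, read 7.48 and 7.60 on the knockout arrays, against 7.83 and 7.80 on the control arrays, and its difference of -0.28 missed the threshold (interval -0.49 to -0.07, adjusted p = 0.070). It was called lower in the same 3 alternatives as PSPH (0.0163 among brighter genes only, 0.0382 with an intensity trend and 0.00437 under reference gene scaling).

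The 9 genes ASNS, CTH, GOT1, SHMT2, ASS1, SLC7A11, SLC3A2, SLC43A1 and SLC1A4 stayed below the threshold of the adjusted p in each of the alternatives that tested them, with their highest adjusted p at 0.0496 for SHMT2. The 11 other calls, the 2 rises among them, were each lost in at least 1 alternative that left out an array.

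Several probe sets were present for 21 of the 32 genes, and all 32 genes together held 72 probe sets. Fitted singly over the 54613 deposited probe sets, 36 of the 72 were lower and 8 higher, against 6.38% and 6.68% of all probe sets, and no gene had probe sets called in both directions. Each probe set was called lower for 8 of the 10 genes called lower that had several, among them SLC1A4 (5 of 5), SHMT2, SLC7A11 and SLC38A2 (3 of 3 each). SLC7A1 had 3 of 5 lower and SLC38A1 3 of 4, the others being dim. The size of the SLC1A4 fall varied most, from -0.75 at a dim gene-specific probe set (4.04 in knockout cells and 4.80 in control cells on average) to -2.74. For MTHFD1 the dim second probe set gave -0.54, not called, and the mean of its probe sets gave 0.01. For SLC7A8, 2 of 5 probe sets were called higher, and the mean over its probe sets was called higher as well (adjusted p = 0.0269). Further probe sets listed with additional genes, 2 each for SHMT1 and MTHFD1L and 1 for PHGDH, were not used.

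**Figure D4:**
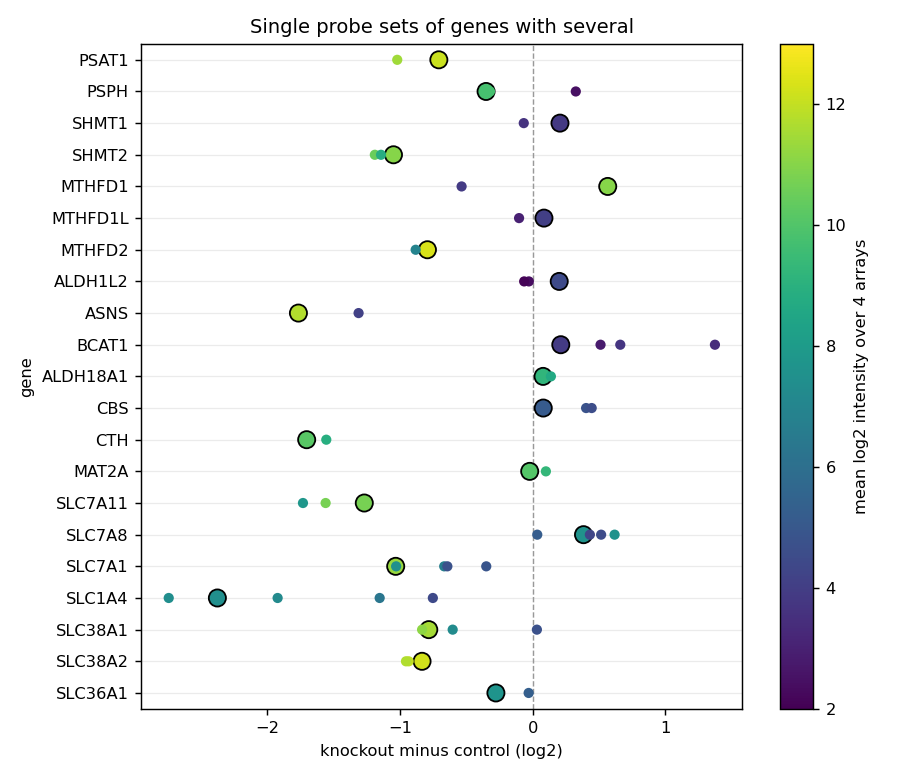
Knockout minus control difference (log2) of each probe set of the 21 genes with several, coloured by mean log2 intensity over the 4 arrays; the large outlined point is the brightest probe set, which represents the gene elsewhere. All 5 points of SLC1A4 lie between -2.74 and -0.75. Dim points stand apart from the brightest in MTHFD1, PSPH and BCAT1, and the brightest of BCAT1 is itself dim (mean 3.93). Points that are not dim stand apart as well, as in SLC7A11 (-1.73 at a mean of 7.83, against -1.27 for the brightest).

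The genes that were lower also differed together between the knockout arrays. All 18 read lower on knockout 1 than on knockout 2, with a median gap of -0.20 and a range of -0.48 for ASNS to -0.01 for SLC38A2. Among the 2281 genes called lower over all genes, the share lower on knockout 1 was 51.3% and the median gap -0.003, and over all genes the share was 57.4%. Of the other 14 measured genes, 8 read lower on knockout 1. Between the control arrays the 18 genes lay closer, with a median gap of 0.07 for control 1 minus control 2, and 15 of them read higher on control 1. So did 11 of the other 14 measured genes, 56.3% of all genes called lower and 47.4% of all genes. Of 15 ATF4 pathway genes called lower, described next, 14 also read lower on knockout 1, with a median gap of -0.22. Gaps between single arrays were not tested.

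**Figure D5:**
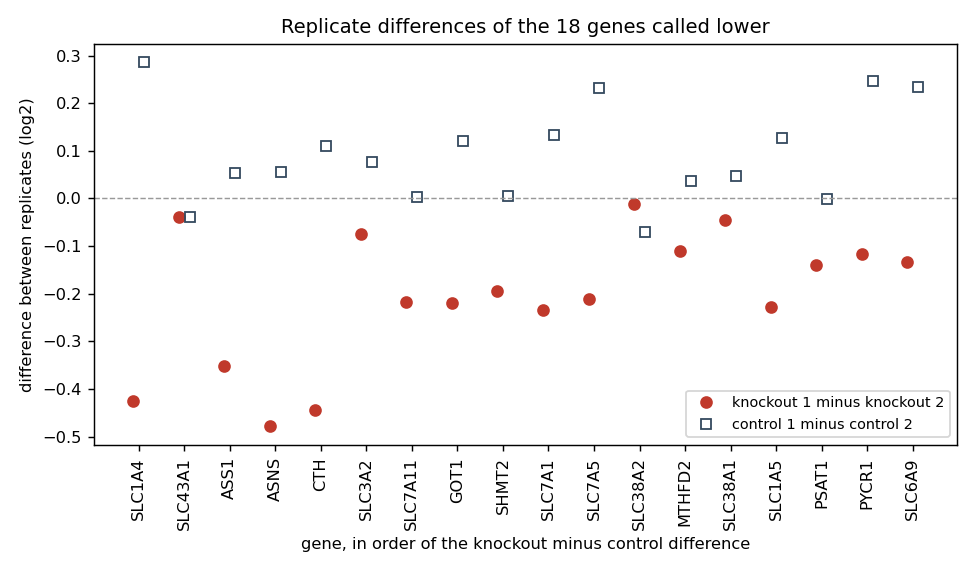
Difference between the replicates of a group (log2) for the 18 genes called lower, in order of the knockout minus control difference: red points are knockout 1 minus knockout 2, open squares control 1 minus control 2. All red points lie below 0, down to -0.48 for ASNS, whereas 15 of 18 squares lie above 0. Control 1 also read higher than control 2 for 11 of the other 14 measured genes and 47.4% of all genes.

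Genes of the ATF4 pathway were mostly lower, while its upstream kinases moved in both directions. The 19 listed genes join ATF4, its partners, upstream kinases and feedback factors with other stress response genes (CHAC1, DDIT4, FGF21 and SESN2). Of the 19, 15 were lower (78.9%, against 11.5% of all genes) and 3 higher (15.8%, against 12.4%), with a median of -1.54. EIF2AK1, a kinase that senses heme, was not called (difference 0.07). ATF4 itself read 12.31 and 12.29 on the knockout arrays, against 12.94 and 12.89 on the control arrays, and fell by 0.62 (SE 0.08, adjusted p = 0.0052; 0.0695 without knockout 1 and 0.0770 without knockout 2). ATF4 is regulated largely in its translation, which these arrays do not read. Falls of NUPR1 (-3.26, SE 0.10), ATF3 (-2.81, SE 0.12) and DDIT3 (-2.71, SE 0.10), all stress-induced regulators, were larger; ATF3 was -0.70 with its gene-specific probe set. TRIB3, a pseudokinase that restrains ATF4, fell by 1.65 (SE 0.15; adjusted p = 0.0529 without knockout 1). EIF2AK4, which encodes GCN2, read 9.09 and 9.16 on the knockout arrays, against 8.42 and 8.49 on the control arrays, and rose by 0.67 (SE 0.08, adjusted p = 0.0046), and the other 2 rises were EIF2S1, a subunit of eIF2 (0.50), and the kinase gene EIF2AK2 (0.50). EIF2AK3, which encodes PERK, read 7.94 and 8.07 on the knockout arrays, against 9.97 and 9.91 on the control arrays, and fell by 1.94 (SE 0.09, adjusted p = 0.00050). The calls of these 3 rises were lost without either knockout array. Those of EIF2S1 and EIF2AK2 were lost also without control 2 and under reference gene scaling, and that of EIF2AK2 without control 1. That of EIF2S1 was lost as well when read from its gene-specific probe set, at 0.24 (adjusted p = 0.140).

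Related genes outside the 33 did not move in 1 direction. Of 30 other measured enzymes of amino acids and folate 6 were lower (20.0%, against 11.5% of all genes) and 9 higher (30.0%, against 12.4%). ARG2, the mitochondrial arginase, read 9.51 and 9.50 on the knockout arrays, against 11.33 and 11.31 on the control arrays, and fell by 1.82 (SE 0.07, adjusted p = 0.00039); GCLM (-1.47, SE 0.09) and GCLC (-1.44, SE 0.08), the subunits of the enzyme that starts glutathione synthesis from cysteine, fell as well. Higher were MTHFD2L (1.21, SE 0.12), a homologue of MTHFD2, the thymidylate synthase TYMS (0.89, SE 0.08) and GLDC (0.74, SE 0.16) of the glycine cleavage system. The calls of MTHFD2L and TYMS were lost without either knockout array. That of GLDC was lost in each fit on 3 arrays and under reference gene scaling, at 0.42 (adjusted p = 0.0659). The size of MTHFD2L was 0.43 with the mean of its probe sets, and that of ARG2 was -0.97 with its gene-specific probe set, both still called.

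Of 32 other measured transporters of amino acids and folate 3 were lower and 4 higher, 21.9% against the 24.0% of all genes called. SLC1A3, a glutamate transporter, read 8.05 and 8.09 on the knockout arrays, against 6.59 and 6.67 on the control arrays, and rose by 1.44 (SE 0.08, adjusted p = 0.00070). The cationic carrier SLC7A2 fell by 0.80 (SE 0.08) and the folate carrier SLC46A1 by 0.78 (SE 0.09), while SLC3A1 (0.54), the ornithine carrier SLC25A15 (0.42) and the mitochondrial aspartate carrier SLC25A12 (-0.43) changed by less. Of these 6 calls only that of SLC1A3 held with each array left out. With the mean of probe sets SLC3A1 was 0.16 (adjusted p = 0.202), SLC46A1 -0.21 (adjusted p = 0.147) and SLC7A2 -0.40 (adjusted p = 0.0307). With gene-specific probe sets SLC3A1 was 0.03 (adjusted p = 0.849) and SLC25A12 -0.27 (adjusted p = 0.125). Under reference gene scaling SLC3A1 was 0.22 (adjusted p = 0.0627) and SLC25A15 0.10 (adjusted p = 0.301). Of 23 measured genes of the mTORC1 complex and its amino acid sensors 3 were lower (13.04%, against 11.5% of all genes) and 5 higher (21.7%, against 12.4%). Lower were RRAGC (-0.65), LAMTOR3 (-0.54) and TSC1 (-0.53), and AKT1S1 (1.01), an inhibitory subunit of the complex, SESN1 (0.67) and LAMTOR4 (0.66) had the largest rises. The calls of these 6 genes were lost without either knockout array (adjusted p 0.0636 to 0.105), and that of LAMTOR3 also when its probe sets were averaged, at -0.21 (adjusted p = 0.122). SESN2 was counted with the ATF4 pathway genes and not among these 23, which held SESN1 and SESN3. It read 7.57 and 7.73 on the knockout arrays, against 9.29 and 9.01 on the control arrays. SESN2 was called lower (adjusted p = 0.0019 in limma), a larger fall than that of RRAGC, so the count of 3 lower depends on this assignment.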

How the data were processed

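RNA of 2 PRMT6-knockout and 2 control arrays was analysed. Probe set intensities were deposited by the authors as 1 table of log2 values over 54613 probe sets; per the submitters' processing notes RMA and affy were used (versions not given in the sources used here), and values of 1.64 to 14.16 show the log2 scale. Quantile normalization makes each difference relative to other transcripts, and RMA compresses differences of dim probe sets. Detection calls were not used here. Probe sets were named from the platform annotation, with symbols updated through Entrez numbers to the RefSeq table of GRCh38.p14: 41091 had 1 gene symbol, 1801 several and 11721 none listed; 41037 of the first matched RefSeq. The brightest probe set represented each of 19775 genes. The knockout minus control contrast came from lmFit and eBayes of limma 3.58.1 under R 4.3.3 (2 residual and 3.27 prior degrees of freedom), Benjamini-Hochberg adjusted over all genes; the script was tested on simulated data. Few arrays limit the precision. The labels state no pairing of arrays. Deviations of arrays with the same replicate number correlated at 0.05 over genes, which with 2 arrays per group cannot show whether arrays were paired.

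Named were all 33 genes, PRMT6, ATF4, ATF3, DDIT3 and TRIB3, and in each related list up to 3 called genes with the largest rise and up to 3 with the largest fall. Genes named beyond this (EIF2AK1, EIF2AK3, CHAC1, DDIT4, FGF21, SESN2, the markers) were chosen after their values were seen. Members and lists were chosen with earlier results of these data known. Alternatives were other probe set choices, brighter genes only, other priors, other scalings, a replicate block and each array left out; the fit over single probe sets was added after seeing the data.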

Additional observations from a re-analysis of the deposited data

How the results depend on the processing

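With the replicate number as a block, 18 of the 32 genes were lower and 2 higher. Of all genes 3972 were called, against 4740 without the block. Among the 32 genes, PRMT6 and the named genes of the related lists, the only call lost was that of PRMT6. EIF2AK3, CHAC1, DDIT4, FGF21 and SESN2 were not included in that check. With the mean of probe sets 4 of the 32 were higher. Under reference gene scaling 11351 of all genes were called, 0 of the 32 were higher and their median was -1.02, against -0.70; SHMT1 (-0.11), MTHFD1L (-0.23), ALDH1L2 (-0.12), BCAT1 (-0.11), ALDH18A1 (-0.24), CBS (-0.24) and ASL (-0.15), none called on either scale, changed sign. Other sign changes were of genes near 0 and not called: MTHFD1L with the mean of probe sets (-0.009) and its gene-specific probe set (-0.10), MAT2A with the mean (0.0384) and equal gene medians (0.0291), PHGDH with equal gene medians (0.044), and SHMT1 (-0.0674) and ALDH1L2 (-0.0292) with gene-specific probe sets. With single arrays left out, 508 to 2629 of all genes were called, 9 to 17 of the 32 were lower and 0 to 2 higher, 5 to 8 enzymes and 4 to 9 transporters were lower, and PHGDH ran from -0.0811 to 0.0657 and MAT2A from -0.0593 to 0.014. A lone array was assumed to vary like the other group. Fewer arrays leave 1 residual degree of freedom; the cause of each lost call was not tested further. The genes called lower kept their sign in each alternative.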
